A study of Homo sapiens with 4 samples.

Results

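The forkhead transcription factors FOXO1, FOXO3 and FOXO4 and 7 genes of the response to growth factor withdrawal, BCL6, KLHL24, TRIB1, TRIB2, PIK3IP1, IRS2 and CITED2, were followed in AC16 cells over an exposure to doxorubicin. These 10 genes were taken from a fixed list of names, drawn up with earlier results of these data known. They are 10 of 57891 genes whose annotated transcripts (GENCODE 29) were summed, of which 31520 had a count in any library, and each of the 10 had counts in all 4 libraries. AC16, an established human line, came from the fusion of ventricular cells of an adult heart with transformed fibroblasts, and the labels call it cardiomyocyte. Doxorubicin, an anthracycline that poisons topoisomerase II, was given at 10 nM for 10, 30 or 360 min, and an untreated library stood for 0 min. The drug reached the cells in fresh medium without serum, after the serum-containing medium had been taken off and the cells rinsed. The labels do not say whether the untreated cells went through the same change of medium. Effects of doxorubicin, of fresh medium and of serum loss therefore cannot be told apart in any comparison with 0 min. Between treated libraries, time in the drug and time in that medium run together, so their effects cannot be told apart there either. Each time has 1 library, so differences could not be checked in replicates and no p-value is given. In bulk RNA, fewer cells with a transcript and less of it per cell cannot be told apart.

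Growth factors and insulin act through phosphoinositide 3-kinase (PI3K) to switch on the kinase AKT, which phosphorylates FOXO proteins so that 14-3-3 proteins hold them in the cytoplasm. When growth factor is withdrawn, unphosphorylated FOXO moves to the nucleus and binds genes of cell cycle arrest, atrophy and autophagy, and some genes whose products act back on PI3K and insulin signalling. In heart muscle, FOXO factors are known for their part in atrophy, autophagy and defence against oxidants. RNA alone was measured, so the phosphorylation and the location of FOXO proteins are not covered by these values.

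The proximal promoters were read first, because FOXO proteins recognise a short DNA core and the genes below include reported FOXO targets. RefSeq promoter windows (GRCh38.p14, 250 bases before to 50 after a start site) matched 9 of the 10 genes, with 16 windows in all. The lines below give 30 bases around the motif that each window held, 5′ to 3′ on the gene's strand, with the motif in capitals, for the genes in which the results show the largest differences and for IRS2.
FOXO4, chrX:71095863-71095892, plus strand: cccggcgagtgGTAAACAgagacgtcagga
PIK3IP1, chr22:31292454-31292483, minus strand: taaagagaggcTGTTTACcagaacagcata
TRIB2, chr2:12716686-12716715, plus strand: tTGTTTACctccccggccgggcgagggagc
KLHL24, chr3:183635580-183635609, plus strand: ctgacgctcagTGTTTTGgcccggacggtc
IRS2, chr13:109786605-109786634, minus strand: gagtcacatgtTGTTTTGctcttcttagtt
BCL6, chr3:187745447-187745476, minus strand: tgaTTCTTAGAActggggTTCTTAGAAgtg
Both strands of every window were searched. The FOXO core TGTTTAC was present in a window of FOXO4 (as its reverse complement), of PIK3IP1 and of TRIB2. That is 3 of the 16 windows, beside 3.42% of all 35116 RefSeq windows of that length. The FOXO4 window ends at base 71095900, upstream of the first GENCODE start of the gene at 71096197. The related insulin response core TGTTTTG stood in the windows of KLHL24 and IRS2 and in 4.92% of all windows. The palindrome TTCNNNGAA, which STAT factors and BCL6 itself can bind, was present in 1 of the 16 windows and in 7.66% of all windows. That was the BCL6 window near the most distal start of the gene. The palindrome lay there 4 times, and the 2 copies next to the RefSeq start site are shown. A BCL6 window further downstream did not hold it. The motifs shown for BCL6, PIK3IP1 and KLHL24 lie downstream of the first GENCODE start of their gene. The E-box CACGTG (7.26% of all windows) was present in a window of CITED2, and the cyclic AMP response element TGACGTCA (1.85%) in none of the 16. The GC box GGGCGG was the most common motif searched, in 10 of the 16 windows and in 45% of all. The TGTTTAC of TRIB2 begins at position -249 from the RefSeq start, and the 203 bases before the first GENCODE start show that motif at one end and GGGCGG boxes, left in lower case, towards the other.
TRIB2, chr2:12716686-12716888, plus strand: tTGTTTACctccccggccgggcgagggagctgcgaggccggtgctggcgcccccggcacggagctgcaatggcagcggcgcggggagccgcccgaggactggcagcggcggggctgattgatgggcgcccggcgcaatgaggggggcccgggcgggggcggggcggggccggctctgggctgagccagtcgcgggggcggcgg
A match describes the letters and is not a measured binding site, and no binding was measured in these cells.

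The 4 libraries were close in depth, with 55156612 to 56875881 deposited counts, worth about 13789153 to 14218970 read pairs at 4 counts a pair. Mitochondrial genes took 3.83 to 4.20% of counts. Over all genes with at least 5 CPM (counts scaled to a common library total) in 1 of the 2 libraries compared, the middle 50% of log2 ratios spanned -0.42 to 0.38 at 10 min against 0 min, -0.20 to 0.20 at 30 min and -0.16 to 0.17 at 360 min, so the 10 min library stood furthest from the untreated one. Of 14 cardiomyocyte markers, 6 reached 1 CPM in any library, and ACTC1 and PLN were at 0 in all 4. Of 11 fibroblast and matrix markers 6 did so, with DCN and LUM at 0 in all 4 libraries, and the 11 summed to 10530, 13796, 8990 and 8904 CPM at 0, 10, 30 and 360 min. The 14 cardiomyocyte markers summed to 111.5, 136.2, 208.4 and 146.9 CPM. The sarcomere genes TNNT2, TNNI3, MYH6, MYH7 and ACTN2 were below 1 CPM in every library, as were the matrix and fibroblast genes COL3A1, THY1 and POSTN. Some defining markers of both kinds were therefore absent or nearly so from the line labelled cardiomyocyte. At 0 min the 6 fibroblast and matrix markers that reached 1 CPM held 10528 CPM, and the 6 cardiomyocyte markers that did so held 110.8 CPM. Of 6 endothelial markers only VWF reached 1 CPM, and it had 10.5 CPM at 10 min, against 5.12 CPM at 0 min. The 5 immune markers summed to 30.4, 57.65, 33.0 and 29.75 CPM at 0, 10, 30 and 360 min. CD14 was at 0, and PTPRC and LYZ were below 1 CPM in every library. Only 1 of the 5 reached 5 CPM, so the immune sum rests mostly on 1 gene. None of 4 epithelial markers reached 1 CPM. The matrix, endothelial and immune sums were therefore all at their highest in the 10 min library, in which most of the 10 genes peaked as well. Their part in the results was not tested.

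A gene was called higher or lower when its CPM differed by 2-fold or more, when either library had 5 CPM or more and when the 95% counting interval of the ratio left out 1. Ranges in parentheses after a ratio are these intervals, and they cover counting error only. At 10 min, 4 of the 10 genes were higher than at 0 min (FOXO4, BCL6, TRIB2 and KLHL24) and none was lower. Of all 11892 genes compared, 7.69% were higher and 6.85% lower. The median log2 ratio of the 10 genes was 0.74, and that of all genes was -0.04. At 30 min none of the 10 passed in either direction, beside 3.55% higher and 3.25% lower of 11533 genes, and their median was 0.04. At 360 min 3 of the 10 were lower (PIK3IP1, TRIB2 and KLHL24) and none higher, beside 3.34% lower and 3.26% higher of 11511 genes, with a median of -0.15 for the 10 and 0.01 for all. These comparisons all use the same 0 min library, so a high or low value in it enters each of them.

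**Figure D1:**
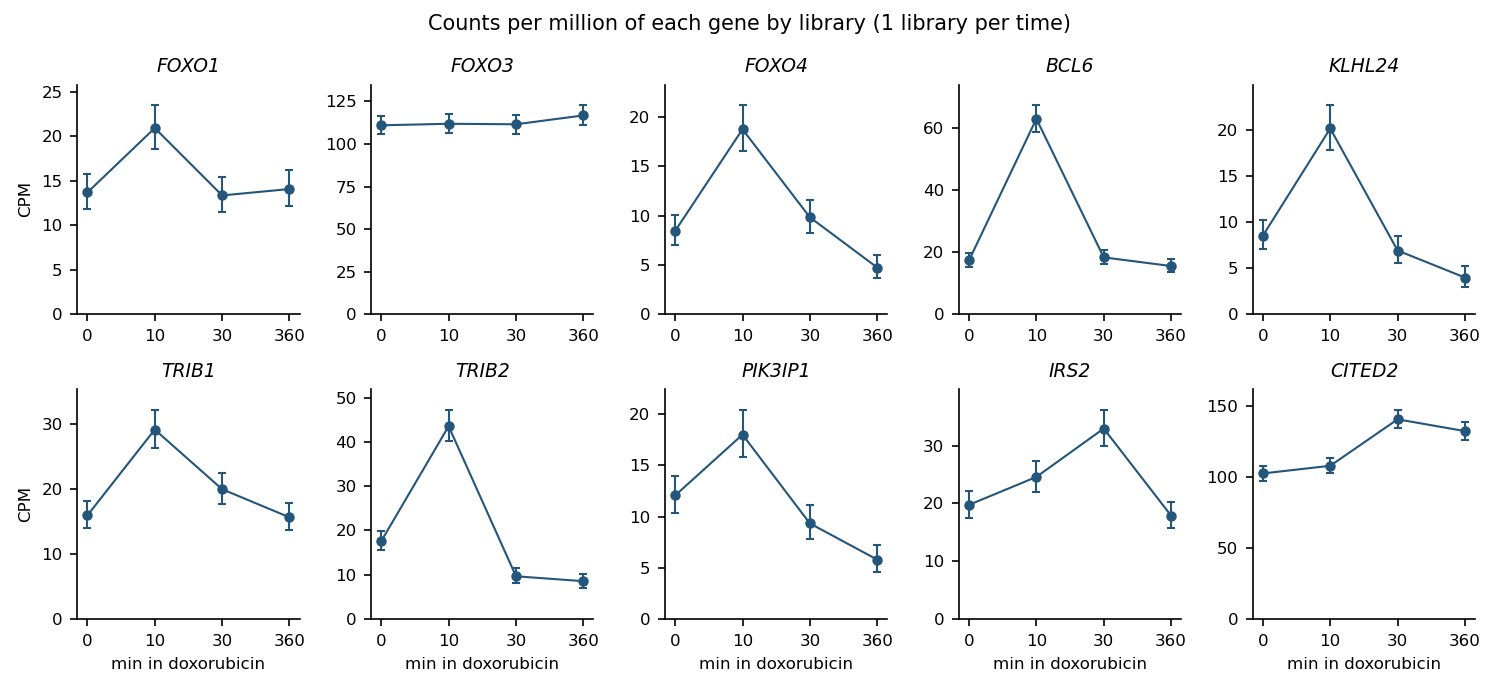
CPM of each gene (vertical axis, starting at 0, scaled to the gene) at 0, 10, 30 and 360 min in doxorubicin (horizontal axis, evenly spaced), with 1 library per time and bars for the 95% counting interval. FOXO4, BCL6, KLHL24 and TRIB2 stand highest at 10 min, FOXO3 stays between 111 and 117 CPM, and IRS2 and CITED2 are highest at 30 min.

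The 3 FOXO genes had unlike courses. FOXO1, a regulator of glucose metabolism and of blood vessel growth (ENSG00000150907, chromosome 13, 40469953 to 40666597), had 13.7, 20.95, 13.4 and 14.1 CPM at 0, 10, 30 and 360 min. Its 10 min value stood above the other 3, which lay within 1 CPM of each other. The ratio of 10 to 0 min was 1.53 (1.27 to 1.84), under the 2-fold limit though its interval left out 1. At 30 min the ratio was 0.98 (0.79 to 1.20) and at 360 min 1.03 (0.84 to 1.26).

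FOXO3, the FOXO factor best known for stress resistance and muscle atrophy (ENSG00000118689, chromosome 6, 108559835 to 108684774), had 111, 112, 112 and 117 CPM at 0, 10, 30 and 360 min. No library stood apart from the others. Its ratios to 0 min were 1.01 (0.94 to 1.08) at 10 min, 1.00 (0.94 to 1.08) at 30 min and 1.05 (0.98 to 1.13) at 360 min. The 3 intervals lay between 0.94 and 1.13. FOXO3B, a near copy of FOXO3 on chromosome 17, had 6.05, 5.29, 6.89 and 5.91 CPM. How reads common to both copies were divided is uncertain.

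FOXO4, the X-linked member of the family, known for its part in cell cycle arrest (ENSG00000184481, chromosome X, 71096197 to 71103535), had 8.44, 18.7, 9.82 and 4.73 CPM at 0, 10, 30 and 360 min. The 10 min library was high and the 360 min library low. FOXO4 was 2.22-fold higher (1.78 to 2.78) at 10 min than at 0 min. At 360 min it stood at 0.56 of the untreated level (0.41 to 0.76), short of the 2-fold limit, and was 2.08-fold lower (1.53 to 2.83) than at 30 min. FOXO6, the remaining FOXO gene, which is not among the 10, had 9.44, 9.28, 8.86 and 7.92 CPM.

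Levels of different genes are comparable only per length. On that scale, CPM per kilobase of transcript, FOXO3 had 15.15, 15.3, 15.2 and 15.9 at 0, 10, 30 and 360 min, FOXO4 had 3.46, 6.28, 2.98 and 2.65, and FOXO1 had 3.03, 3.87, 2.34 and 2.75. FOXO3 therefore made up 70.0, 60.1, 74.1 and 74.7% of the summed level of the 3 factors, and FOXO4 16.0, 24.7, 14.5 and 12.4%. The scale adds CPM over length for every annotated model, so counts given to short noncoding models weigh more. At 360 min FOXO4-204, a processed transcript of 657 bases, had 0.997 CPM, and the coding FOXO4-202, of 3301 bases, had 3.735 CPM. The FOXO4 level and share at 360 min therefore rest in large part on that short model. The share of FOXO3 was smallest at 10 min, where its own level was 15.3 CPM per kilobase, against 15.15 CPM per kilobase at 0 min, and FOXO4 and FOXO1 had their highest levels.

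Among the genes that act as transcriptional or protein-level effectors, BCL6 showed the widest swing at 10 min. BCL6 is a zinc finger repressor that FOXO factors are known to switch on, for example in blood cells (ENSG00000113916, chromosome 3, 187721377 to 187745727). It had 17.3, 62.85, 18.3 and 15.5 CPM at 0, 10, 30 and 360 min. The other 3 libraries lay within 3 CPM of each other, and the 10 min library alone was high, 3.63-fold (3.15 to 4.20) above 0 min. At 30 min the level was 3.44-fold lower (2.98 to 3.97) than at 10 min. This was a difference of the summed transcripts, and the models that carried it are described further on.

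KLHL24 encodes an adaptor of a cullin ubiquitin ligase, known for the turnover of keratin in skin (ENSG00000114796, chromosome 3, 183635568 to 183684477). It had 8.54, 20.2, 6.93 and 3.99 CPM at 0, 10, 30 and 360 min. It was 2.36-fold higher (1.90 to 2.95) at 10 min than at 0 min, and at 360 min it was 2.14-fold lower (1.55 to 3.00) than at 0 min. KLHL24 thus passed in opposite directions at 10 and 360 min, and between them, at 30 min, it was 2.92-fold lower (2.30 to 3.72) than at 10 min. Its 360 min value was the lowest CPM of any of the 10 genes in any library.

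The Tribbles genes encode pseudokinases, kinase-like proteins that bring substrates to the ubiquitin ligase COP1 and bind AKT or MEK. TRIB2, reported as a repressor of FOXO3 function in melanoma (ENSG00000071575, chromosome 2, 12716889 to 12742734), had 17.6, 43.5, 9.66 and 8.56 CPM at 0, 10, 30 and 360 min. The 10 min library was the highest, and the 30 and 360 min libraries were both under the untreated one. TRIB2 was 2.47-fold higher (2.13 to 2.88) at 10 min than at 0 min and 2.06-fold lower (1.65 to 2.58) at 360 min. Its 30 min level was 0.55 of the untreated one (0.44 to 0.68), within the limit, and was 4.51-fold lower (3.73 to 5.48) than at 10 min, the widest step between neighbouring times among the 10 genes. TRIB1, known for sending the factor C/EBP alpha to degradation (ENSG00000173334, chromosome 8, 125430321 to 125438405), had 15.9, 29.1, 19.9 and 15.6 CPM. It was at its highest at 10 min too, with a ratio of 1.83 (1.55 to 2.16) to 0 min that did not reach 2-fold, and at 360 min its ratio was 0.98 (0.81 to 1.19).

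**Figure D2:**
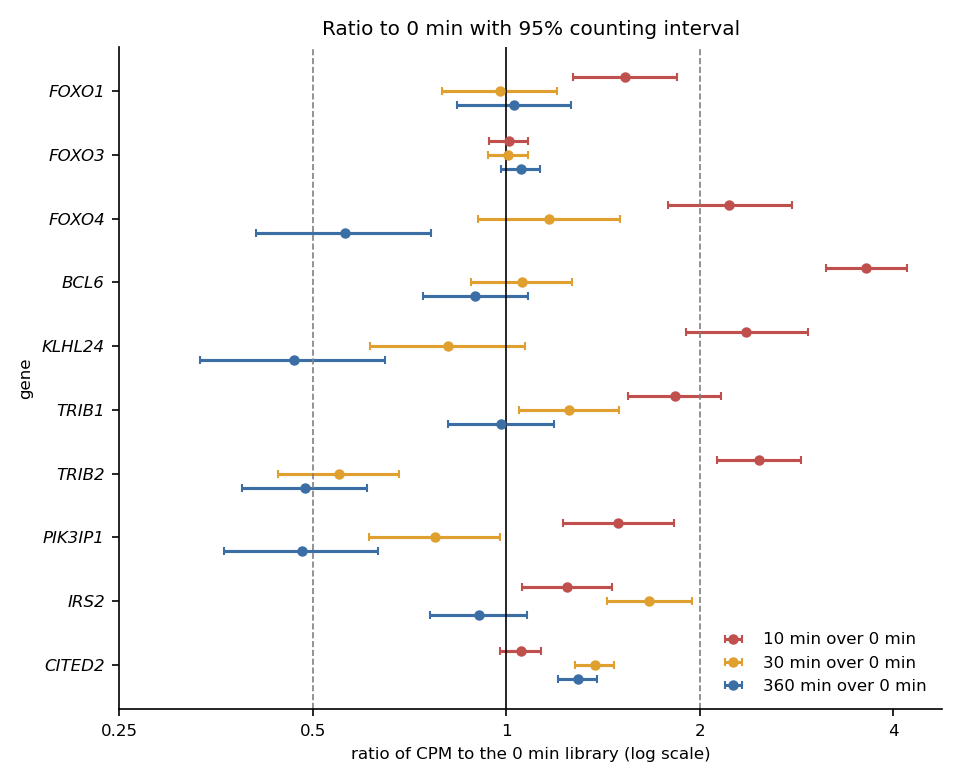
Ratio of CPM at 10, 30 and 360 min to CPM at 0 min for each gene (horizontal log axis), with bars for the 95% counting interval and dashed lines at 2-fold in each direction. At 10 min BCL6, TRIB2, KLHL24 and FOXO4 lie beyond 2-fold, and at 360 min PIK3IP1, TRIB2 and KLHL24 lie below 0.5, while FOXO3 stays at 1 in all 3 comparisons.

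The genes that act on PI3K and insulin signalling differed from each other. PIK3IP1 encodes a membrane protein that binds the catalytic subunit of PI3K and restrains it (ENSG00000100100, chromosome 22, 31281593 to 31292534). It had 12.1, 18.0, 9.34 and 5.80 CPM at 0, 10, 30 and 360 min. The ratio of 10 to 0 min was 1.49 (1.22 to 1.82) and did not reach the limit, and at 360 min the gene was 2.08-fold lower (1.59 to 2.75) than at 0 min. The 360 min library was the lowest of the 4.

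IRS2, an adaptor that carries the signal of the insulin and IGF1 receptors to PI3K and a known FOXO target in liver (ENSG00000185950, chromosome 13, 109752698 to 109786568), had 19.8, 24.6, 33.0 and 17.9 CPM at 0, 10, 30 and 360 min. Its highest value came at 30 min rather than at 10 min. The ratios to 0 min were 1.24 (1.06 to 1.46) at 10 min, 1.67 (1.43 to 1.94) at 30 min and 0.91 (0.76 to 1.08) at 360 min, none of which reached 2-fold. The 360 min level was 0.54 of the 30 min level (0.46 to 0.64), also within the limit.

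CITED2, a cofactor that competes with HIF1A for the coactivators p300 and CBP and is needed for heart development in mice (ENSG00000164442, chromosome 6, 139371807 to 139374620), had 102.5, 108, 141 and 132 CPM at 0, 10, 30 and 360 min. The 30 and 360 min libraries were above the earlier ones. The ratios to 0 min were 1.05 (0.98 to 1.13) at 10 min, 1.37 (1.28 to 1.47) at 30 min and 1.29 (1.20 to 1.38) at 360 min. At 30 and 360 min the interval left out 1 without the ratio reaching 2-fold. Per kilobase CITED2 had the highest level of the 10 genes, 46.0 to 62.6 CPM per kilobase over the 4 libraries.

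Per kilobase, the order in the untreated library was CITED2 (46.0 CPM per kilobase), FOXO3 (15.15), BCL6 (5.54), PIK3IP1 (4.69), TRIB2 (4.51), TRIB1 (4.38), FOXO4 (3.46), FOXO1 (3.03), KLHL24 (2.48) and IRS2 (2.43). The genes below FOXO3 lay close to their neighbours in this order, and with 1 library their order has no check. Short models weigh more on this scale, and it can differ in direction from CPM. KLHL24 had 2.48 CPM per kilobase at 0 min and 2.82 at 30 min, while its CPM was 8.5 and 6.9. In the 10 min library BCL6, at 21.4 CPM per kilobase, stood above FOXO3, at 15.3, and TRIB2 at 10.6 and TRIB1 at 8.20 followed. In the 360 min library the lowest were IRS2 at 2.20, TRIB2 at 2.04 and KLHL24 at 1.64.

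Over the 4 libraries, 7 of the 10 genes had their highest CPM at 10 min, 2 (IRS2 and CITED2) at 30 min and 1 (FOXO3) at 360 min. Of 12140 genes with 5 CPM in any library, 34.1% peaked at 10 min. The lowest CPM fell at 360 min for 7 of the 10, as it did for 22.3% of all genes. BCL6, TRIB2 and KLHL24 were at least 2-fold higher at 10 min than in each of the other 3 libraries, a rule that 3.22% of all genes met, and for FOXO4 the ratio of 30 to 10 min was 0.52 (0.42 to 0.65). Between 10 and 30 min the same 3 of the 10 were lower and none was higher, with a median log2 ratio of -0.79. Of 11902 genes 7.54% were lower and 6.86% higher in that step. Between 30 and 360 min FOXO4 was lower and no other of the 10 passed, with a median of -0.30, beside 3.49% lower and 3.26% higher of 11502 genes.

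**Figure D3:**
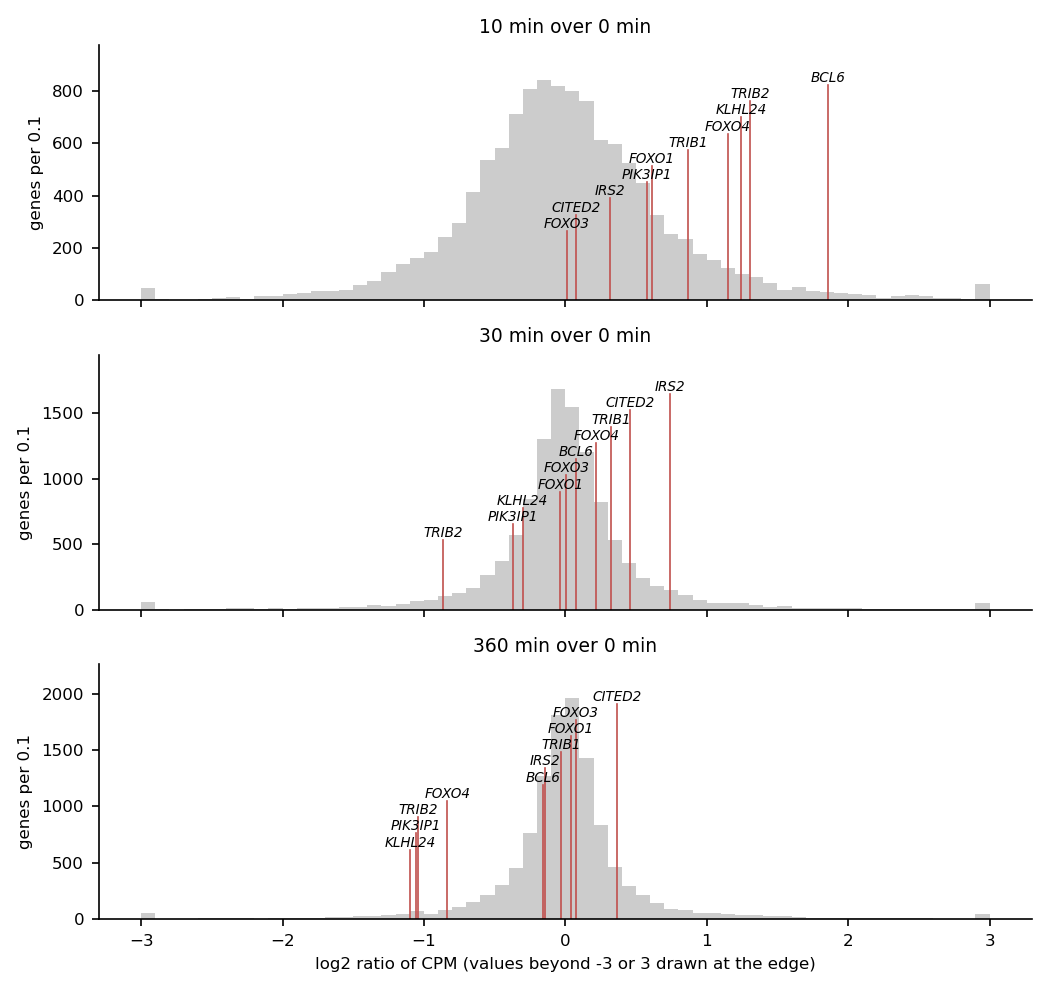
Number of genes per 0.1 of log2 ratio (grey bars, genes with 5 CPM or more in 1 of the 2 libraries, values beyond 3 drawn at the edge) for 10, 30 and 360 min over 0 min, with the 10 genes as red lines whose heights carry no value. At 10 min all 10 lines lie at or to the right of 0 and BCL6 is furthest right at 1.86, and at 360 min KLHL24, PIK3IP1 and TRIB2 lie left of -1.

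Each gene's counts are divided among annotated transcript models, which share exons, so the division is an estimate and less certain than the gene's sum. For FOXO1, FOXO4, TRIB1, TRIB2, KLHL24, IRS2, CITED2 and PIK3IP1 the same model led in every library. FOXO3 and BCL6 changed their leading model. FOXO3-201 and FOXO3-202 are coding models whose starts lie 1031 bases apart. FOXO3-202 held 67.3, 21.1, 95.2 and 79.3% of FOXO3 counts at 0, 10, 30 and 360 min, and FOXO3-201 held 32.7, 78.9, 4.78 and 20.7%. FOXO3-202 thus carried the minority of FOXO3 counts in the 10 min library alone, in which the sum of both models was 112 CPM, against 111 CPM at 0 min.

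BCL6 had 10 models with counts. BCL6-203, annotated as a target of nonsense-mediated decay, held 20.2, 71.6, 0 and 58.0% of the gene's counts at 0, 10, 30 and 360 min, which is 3.50, 45.0, 0 and 8.99 CPM. At 30 min it was listed at 0, where a floor of 3 read pairs is 0.217 CPM. The coding models of BCL6 together had 13.8, 17.2, 18.0 and 6.45 CPM, a ratio of 1.25 at 10 min and of 0.47 at 360 min to 0 min. The 3.63-fold difference of the gene at 10 min therefore sat mostly in the counts given to BCL6-203, and the coding sum did not pass the rule at that time. Models 202 and 211 have the most distal starts of the gene, and the BCL6 bases printed above lie downstream of both starts. Together models 202 and 211 had 11.6, 3.63, 16.2 and 0.870 CPM. They held 66.8% of BCL6 counts at 0 min and 88.5% at 30 min, and 5.78% at 10 min and 5.61% at 360 min. BCL6-203 starts 8639 bases downstream of BCL6-202. Exons of BCL6 share 8.24% of their bases with the genes AC072022.1 and AC072022.2 on the other strand, and whether counting used strand is not given in the sources used here.

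For PIK3IP1, models annotated as retained introns held 36.9, 24.8, 0.969 and 5.94% of counts at 0, 10, 30 and 360 min. Its coding models had 7.61, 13.5, 9.24 and 5.46 CPM. At 360 min the coding sum stood at 0.72 of the 0 min value, so the 2.08-fold lower sum of PIK3IP1 at that time included counts of the retained-intron model PIK3IP1-205, which had 4.45 CPM at 0 min. For FOXO4, TRIB2 and KLHL24 the coding models alone gave 2.39, 2.47 and 2.41 at 10 min and 0.49, 0.49 and 0.46 at 360 min as ratios to 0 min, close to the ratios of the gene sums, so that the coding sum of FOXO4, unlike its gene sum of 0.56, passed the 2-fold limit at 360 min. IRS2 has a single annotated model.

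**Figure D4:**
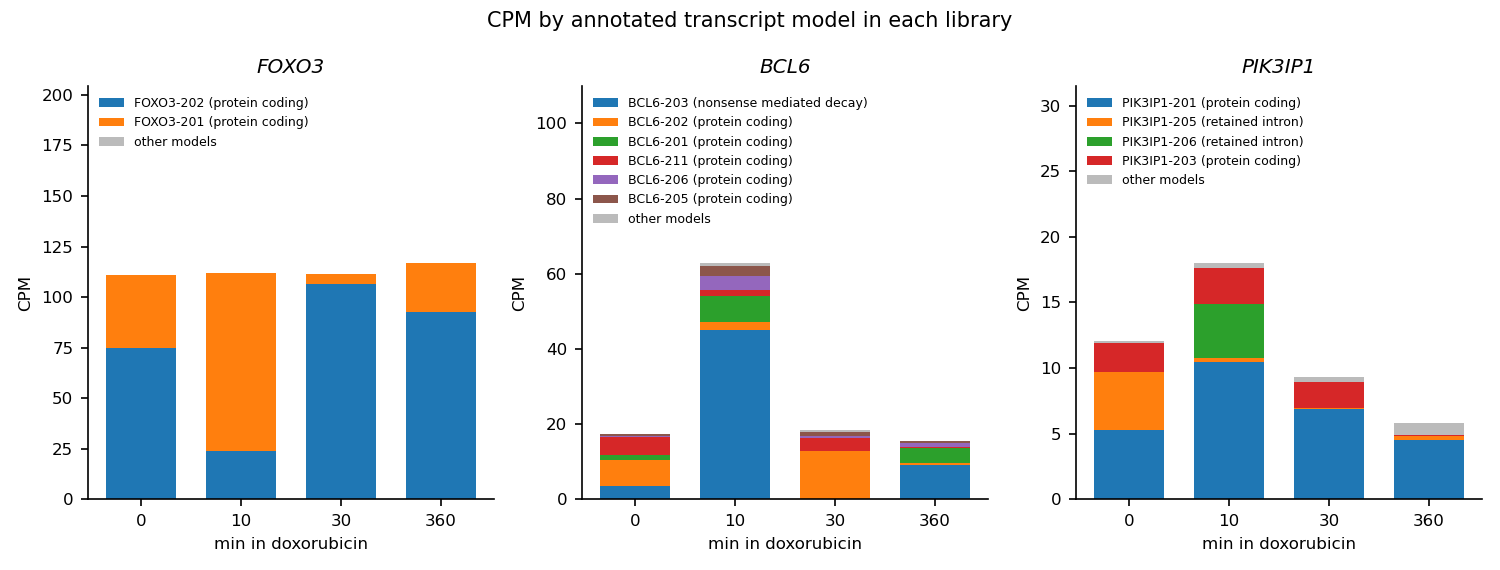
CPM by annotated transcript model (stacked bars, 1 library each) at 0, 10, 30 and 360 min for FOXO3, BCL6 and PIK3IP1, with the annotated class of each model in the legend. The FOXO3 bars are nearly equal in height while FOXO3-201 takes 78.9% of the 10 min bar, and BCL6-203 makes up 45.0 of the 62.85 CPM of BCL6 at 10 min.

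For the 5 genes that passed the rule against 0 min, the 3 genes with the nearest course were found among 10349 genes with at least 5 CPM in every library, by the root mean square difference of centred log2 CPM over the 4 libraries. Nearest to FOXO4 were GABBR1 (0.08), SLC2A10 (0.12) and CPVL (0.14). Nearest to BCL6 were ADAMTSL4 (0.04), ARG2 (0.05) and SLTM (0.06), and ADAMTSL4 had 14.4, 51.4, 14.7 and 12.0 CPM at 0, 10, 30 and 360 min. TRIB2 was most like SLC35B4 (0.04), ABI3BP (0.08) and GRIN3B (0.16), and SLC35B4 had 22.1, 58.1, 11.9 and 11.0 CPM. For PIK3IP1 they were MELTF (0.08), SLC24A3 (0.10) and C1orf94 (0.10), and for KLHL24 they were GBP2 (0.13), WDR6 (0.13) and JRK (0.18).

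The pathway around the 10 genes was read through lists of its other parts. A list's members counted here had at least 1 CPM in any library, and the ratio of a gene was checked on its whole assembly locus where a single locus could be matched, with assembled models and overlapping genes included. Of 27 PI3K and AKT signalling genes, 2 were higher and 1 lower at 10 min than at 0 min, 3 higher and 2 lower at 30 min, and 1 higher and 1 lower at 360 min, with median log2 ratios of 0.07, 0.07 and -0.05. Over all genes 7.69% were higher and 6.85% lower at 10 min, so the counts of this list at that time did not stand above the background. The shares higher and lower were 3.55% and 3.25% at 30 min, and 3.26% and 3.34% at 360 min. Whether the list stood above them at those times was not tested. SGK1, a serum-induced kinase that phosphorylates FOXO as AKT does, had 67.8 CPM at 30 min, against 27.9 CPM at 0 min, a 2.43-fold difference (2.16 to 2.74) that its locus kept at 2.52. AKT1, one of the AKT kinases, was 3.22-fold higher at 10 min and 2.61-fold higher at 30 min, and PIK3CD, a catalytic subunit of PI3K, 11.95-fold higher at 10 min, 9.73-fold at 30 min and 2.34-fold at 360 min. PDPK1, the kinase that activates AKT, was 3.78-fold lower at 30 min and 6.63-fold lower at 360 min, and GSK3A, which AKT inhibits, 2.02-fold lower at 10 min. AKT1, PIK3CD, PDPK1 and GSK3A had no single locus, so these values are uncertain. IGF1R, named because it completes the count, had 75.6 CPM at 30 min, against 180 CPM at 0 min, and its locus gave a ratio of 0.51 that did not pass. RICTOR, a subunit of the mTOR complex that phosphorylates AKT, had a ratio of 0.53 at 360 min, within the limit. Its locus ratio at that time was 0.997, so the locus did not show this difference.

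Of 25 genes that modify or carry FOXO proteins (14-3-3 proteins, acetylases and deacetylases, ubiquitin ligases and kinases), none was higher at any time. At 10 min 3 were lower, at 30 min none and at 360 min 1, with medians of -0.35, -0.01 and 0.07. The shares of all genes that were lower were 6.85, 3.25 and 3.34%, and the single gene at 360 min is near that background. The shares of all genes that were higher were 7.69, 3.55 and 3.26%. Whether the absence of higher genes in a list of 25 differs from these shares was not tested. YWHAB, a 14-3-3 protein, had 90.5 CPM at 10 min, against 311 CPM at 0 min, and was 3.43-fold lower (3.23 to 3.66), also as a locus. YWHAH, another 14-3-3 gene, had a ratio of 0.57. CDK1, which can phosphorylate FOXO1, was 4.08-fold lower at 10 min by annotated transcripts, but its locus ratio was 0.53 and did not pass. MAPK8, the kinase JNK1, was 2.06-fold lower at 10 min and 2.05-fold lower at 360 min, with no single locus to check.

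Of 37 genes reported as FOXO targets, 31 were measured. Compared with 0 min, 5 passed upward and 1 downward at 10 min, 2 upward and 3 downward at 30 min, and 2 in each direction at 360 min, with medians of 0.25, 0.07 and -0.14. Over all genes 7.69% were higher and 6.85% lower at 10 min, 3.55% and 3.25% at 30 min, and 3.26% and 3.34% at 360 min. Of the 31, 28 reached 5 CPM in either library compared and could be called. Whether the counts of so short a list differ from these shares was not tested. TXNIP, an arrestin that restrains glucose uptake, had 77.95 CPM at 10 min, against 5.87 CPM at 0 min, 13.3-fold higher (10.6 to 16.8). DEPP1, an autophagy-linked FOXO target, was 4.45-fold higher (3.65 to 5.47) at 10 min, and MXI1, a MAX partner that opposes MYC, 2.51-fold higher (2.16 to 2.93). BNIP3L, a receptor for the removal of mitochondria, was higher at all 3 times, with 179, 174 and 163 CPM at 10, 30 and 360 min, against 64.0 CPM at 0 min. MAP1LC3B completed the 5 with 2.41-fold at 10 min, but its locus ratio was 1.07. PDK4, a brake on glucose oxidation, was 2.33-fold lower at 10 min and 2.22-fold lower at 30 min, and FBXO32, the atrophy ubiquitin ligase atrogin-1, 2.03-fold lower at 30 min. GADD45A, a DNA damage and arrest gene, was 2.54-fold higher (2.34 to 2.75) at 30 min. At 360 min BCL2L11, the apoptosis gene BIM, had 2.34 CPM, against 10.8 CPM at 0 min, 4.61-fold lower (3.14 to 6.96), and MXI1 was 2.22-fold lower, while GABARAPL1, an autophagy gene, was 3.22-fold higher (2.13-fold as a locus). GABARAPL1 was 2.06-fold lower at 30 min by annotated transcripts, against a locus ratio of 1.496. At 10 min its ratio was 1.84 by annotated transcripts, which did not pass, and 2.86 (2.43 to 3.39) as a locus, which did.

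Partners of the other genes, among them corepressors of BCL6, the ligase COP1 and C/EBP factors of the Tribbles proteins, and p300, CBP and HIF1A beside CITED2, made a list of 20. None passed at 10 or 360 min, and 1 passed at 30 min. Over all genes 7.69% were higher and 6.85% lower at 10 min, 3.55% and 3.25% at 30 min, and 3.26% and 3.34% at 360 min. Whether the counts of a list of 20 differ from these shares was not tested. BCOR, a corepressor that binds BCL6, was 2.15-fold higher at 30 min by annotated transcripts, but its locus ratio was 0.95. HIF1A had 866 CPM at 10 min, against 562 CPM at 0 min, a ratio of 1.54 within the limit, and CREBBP a ratio of 0.61. The medians of these partners were -0.08, 0.01 and 0.03 at 10, 30 and 360 min.

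Immediate early genes, which serum and stress switch on within minutes, were read beside them. Of 20, 5 were higher and none lower at 10 min than at 0 min, and 8 higher and none lower at 30 min. None passed at 360 min, and the medians were 0.95, 1.31 and 0.28. At these times 16, 15 and 14 of the 20 reached 5 CPM in either library compared and could be called. The shares of all genes were 7.69% higher and 6.85% lower at 10 min, 3.55% and 3.25% at 30 min, and 3.26% and 3.34% at 360 min. EGR1, a zinc finger factor, had 85.85 CPM at 10 min and 425 CPM at 30 min, against 6.66 CPM at 0 min. FOS, the AP-1 subunit, had 8.58 CPM at 10 min and 24.2 CPM at 30 min, against 0.404 CPM at 0 min. ZFP36, which destabilises mRNAs, had 23.4 CPM at 10 min and 13.4 CPM at 30 min, against 6.35 CPM at 0 min, so called genes of this list had their highest level at 10 min as well as at 30 min. IRS2 had its highest ratio to 0 min, 1.67, at 30 min, and a ratio of 0.91 at 360 min. CITED2 was also highest at 30 min, with a ratio of 1.37, and had 1.29 at 360 min. Whether the courses of the 10 genes differ from those of the immediate early genes was not tested.

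**Figure D5:**
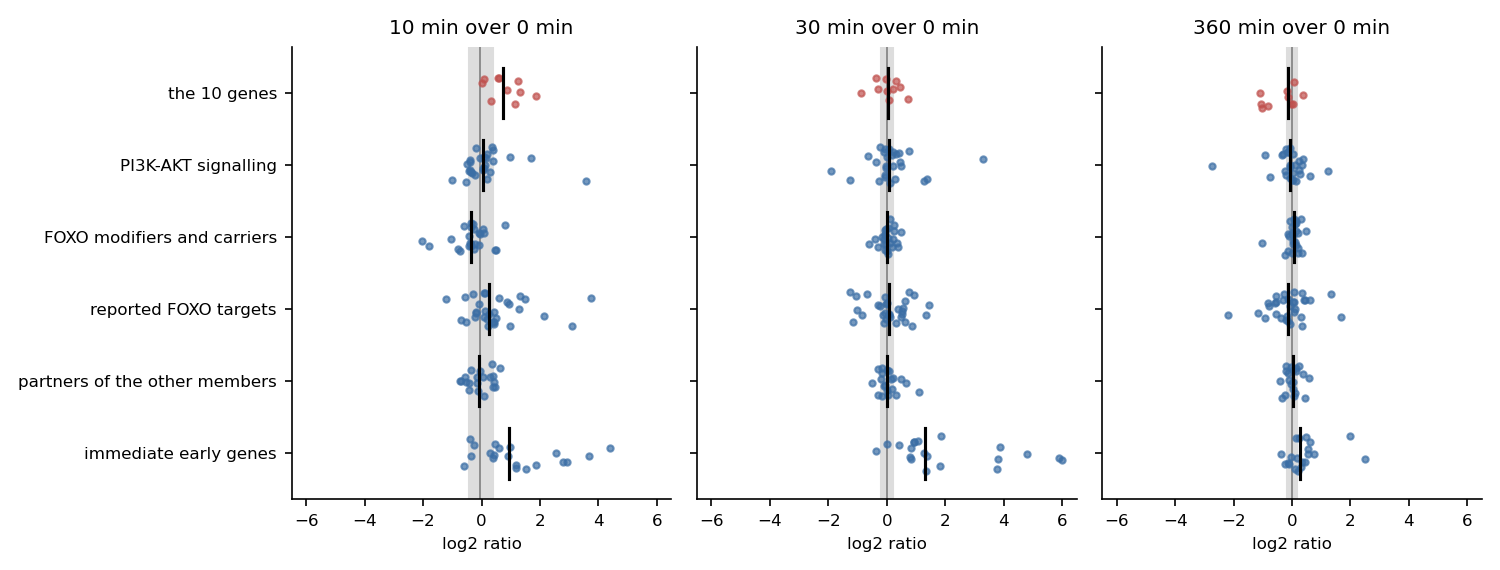
Log2 ratio to 0 min of each measured gene (points, spread vertically for legibility) in the 10 genes (red) and 5 lists (blue) at 10, 30 and 360 min, with black bars for list medians, the grey line for the median of all genes and the grey band for the middle 50% of all genes. At 10 min the median of the 10 genes is 0.74 and that of immediate early genes 0.95, and at 30 min they are 0.04 and 1.31.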

How the data were processed

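Estimated counts for genes and for transcripts were deposited by the authors as whole numbers, with no scaling for depth or length. The submitters' processing notes name GRCh38, HISAT2 and DESeq2. How reads were counted, with which annotation and whether by strand is not given in the sources used here. Per the labels' protocols, poly(dT) beads selected the RNA and a SmartScribe kit made the cDNA.

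Annotated transcript counts were summed by GENCODE 29 gene and scaled to CPM by library totals. Assembled models without annotation held 11.1% of counts and entered only the whole-locus values. Low values of single-transcript genes of at least 1500 bases were multiples of 4 in 38.4% of 2304 cases between 1 and 24, above the 25% of even spacing, so counts were divided by 4 for counting intervals, exact Clopper-Pearson intervals at 95% on the conditional binomial. No molecular identifiers are recorded, so the intervals say nothing beyond counting error. A count of 0 entered a ratio at 3 read pairs. With 1 library per time neither the edgeR nor the DESeq2 test was run, so every comparison is of libraries and not of conditions. The size rule was tested on simulated data with counting noise alone, which says nothing of variation between libraries.

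The 10 genes, the lists and the markers were chosen with earlier results of these data known. All 10 genes are named, with up to 4 genes of each list that had the largest log2 ratio at each time and 5 CPM or more in either library, and the 3 genes nearest to each gene past the rule. A few genes that meet this rule are not reported here. FOXO3B, FOXO6, IGF1R, FBXO32 and MAP1LC3B fall outside the rule and were named after their values were seen. Python 3.11.15, numpy 2.4.6, pandas 2.3.3, SciPy 1.17.1, matplotlib 3.10.9, R 4.3.3, edgeR 4.0.16 (TMM) and DESeq2 1.42.0 (size factors) were used. Other scalings, gene definitions, minima and fold limits were tried as alternatives.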

Additional observations from a re-analysis of the deposited data

How the results depend on the processing

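All 11 calls of the 10 genes held with TMM or median-of-ratios scaling and on whole loci, and all 7 calls against 0 min held with undivided counts or with the median of the other 3 libraries as the baseline. With the most counted transcript alone 6 of 7 held, PIK3IP1 at 360 min (0.85) no longer passed, BCL6 was 12.9-fold higher at 10 min and 2.57-fold higher at 360 min, FOXO4 was lower at 360 min (0.49), and FOXO3-202 stood at 0.32 of its 0 min level at 10 min. With coding transcripts alone, an alternative chosen after seeing the data, 5 of 7 held, BCL6 at 10 min (1.25) and PIK3IP1 at 360 min (0.72) no longer passed, and BCL6 (0.47) and FOXO4 (0.49) were lower at 360 min, so the direction of BCL6 at 360 min was opposite in these 2 settings. The cause was not tested. A 3-fold limit left 1 gene at 10 min (BCL6) and 0 at 360 min, a 1.5-fold limit gave 2 at 30 min (IRS2 higher, TRIB2 lower), and a minimum of 10 CPM left 2 at 360 min, by construction. Over all genes, no CPM minimum gave 3562, 1893 and 1706 calls at 10, 30 and 360 min, against 1730, 784 and 759. Whole loci gave 361 at 30 min, 243 at 360 min and 313 between 30 and 360 min, against 784, 759 and 776, so the background beside the 3 lower genes at 360 min is smaller on that count. At 10 min, 915 genes were higher and 815 lower by library totals, and 832 and 883 with TMM, so which direction held more depended on the scaling. Depth limits the lowest values most, and KLHL24 at 360 min, with 3.99 CPM, rests on 220 deposited counts. No paired analysis was possible because each time has 1 library, and for the same reason no library could be left out.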
